A study of Mus musculus with 9 samples.

Results

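The splicing factors described here are 52 protein-coding genes of 20732 genes in the count table, chosen by symbol on the mouse build GRCm38. They are 11 SR protein genes (Srsf followed by a digit), 20 hnRNP genes (Hnrnp), 9 genes of the SF3A and SF3B complexes (Sf3a or Sf3b followed by a digit) and 12 snRNP protein genes (Snrp). Processed pseudogenes with such symbols, 3 in the table, were left out. Bulk RNA-seq had been run on pancreatic ILC2s (group 2 innate lymphoid cells, lymphocytes of tissues that lack rearranged antigen receptors). They came from C57BL6/J mice and had been sorted as live CD45+ CD3- B220- lineage-negative KLRG1+ cells. Mice of the IL-33 group had been injected on days 0 and 1 with 200 ng of IL-33, an alarmin of the IL-1 family, and mice of the other group with PBS, and pancreata were taken on day 5 in both. The sample titles give 5 IL-33 libraries and 4 PBS libraries (titled naïve), whereas the design text of the series gives 4 and 5 mice, and the sample titles were followed. Neither group carries a transgene or a deletion in the labels, the animals' age is not among them, and no label says that a library is 1 mouse, so the spread behind each p-value is that of the libraries, which may be technical.

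Introns are removed from precursor mRNA by the spliceosome, which is built from small nuclear ribonucleoproteins (snRNPs), each a small nuclear RNA with proteins. The Sm proteins form a ring around the RNA of the U1, U2, U4 and U5 snRNPs, and the SF3A and SF3B complexes belong to the U2 snRNP, which recognises the branch point. SR proteins bind exons through RNA recognition motifs and recruit the spliceosome through domains rich in arginine and serine, and hnRNPs coat nuclear transcripts and often oppose them. Many SR and hnRNP genes limit their own output by splicing to transcripts that carry a premature stop codon and are degraded by nonsense-mediated decay. In lymphocytes these factors are known for setting the isoforms of receptors such as CD45.

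Total counts lay between 15485122 and 21020023 in the IL-33 libraries and between 14216976 and 19725838 in the PBS libraries. ILC2 markers were present in every library, with Gata3 at 2983 to 6792 CPM (TMM-scaled counts per 1e+06) in the IL-33 libraries and 3745 to 5117 CPM in the PBS libraries. Of the 10 ILC2 markers 3 were called higher with IL-33, namely Klrg1 (the sort marker) and the cytokine genes Il5 and Il13, with log2 changes of 1.01, 2.23 and 4.14, and Il7r and Icos were called lower, with -1.28 and -1.50 (edgeR adjusted p of 1.2e-04 to 0.0031). Of the T cell markers, Cd3e stayed at or below 9.31 CPM with IL-33 and 5.82 CPM with PBS, and Cd3g had 231 to 341 CPM with IL-33 and 220.3 to 298 CPM with PBS. Cd3d, also low, had 1.77 to 4.03 CPM with IL-33 and 0 to 1.67 CPM with PBS. Its groups were apart, but it was not called (edgeR adjusted p = 0.17). Cd8b1 was at most 0.143 CPM with IL-33 and 0.191 CPM with PBS. Digestive-enzyme transcripts from pancreatic acini set PBS replicate 4 apart, since 12 acinar markers took 31.5% of its counts, against 0.273% to 8.96% in the IL-33 libraries and 0.0966% to 5.63% in the other PBS libraries. The endocrine genes Ins1 and Ins2 and the 4 ductal markers were also highest there. Ins2 had 233 CPM and Krt18 152 CPM, against at most 2.65 and 22.2 CPM with IL-33. The endocrine genes Gcg and Sst had 0 counts there. The setting with acinar genes removed took out only the 12 acinar markers. Erythroid markers, 4 of 4 higher, took 0.0424% to 0.364% of the counts in the IL-33 libraries and 0.0142% to 0.0343% in the PBS libraries. For Hbb-bs and Hbb-bt the IL-33 libraries were split. Hbb-bs had 449, 217 and 775 CPM in IL-33 replicates 1, 2 and 3 but 1.52 and 0.576 CPM in replicates 4 and 5. With PBS it had at most 0.86 CPM, and its groups overlapped. Hbb-bt had 323, 148.5, 514, 2.38 and 0.797 CPM with IL-33 and at most 0.455 CPM with PBS. The 4 B cell markers took 0.00666% to 0.0104% with IL-33 and 0.000335% to 0.00286% with PBS, with Cd79b called higher at 57.9 to 98.9 CPM with IL-33 and 2.38 to 24.3 CPM with PBS (edgeR adjusted p = 0.015). The 3 endothelial markers took 0.00188% to 0.00560% with IL-33 and 0.00413% to 0.00891% with PBS, with Kdr called lower at 0 to 1.21 CPM with IL-33 and 1.44 to 51.0 CPM with PBS (edgeR adjusted p = 0.018). Their part in the results below was not tested. Member calls that changed without PBS replicate 4 are given with both values.

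In ILC2s of IL-33-treated mice, transcripts of 10 of the 12 snRNP proteins rose and none fell. Among SR proteins 3 of 10 tested genes fell and none rose. Among the 20 hnRNP genes 2 rose and 3 fell, and among the 9 SF3 genes 2 rose and 1 fell. These calls are from edgeR's quasi-likelihood test with an adjusted p below 0.05, fitted over 14405 genes of which 13.7% were called higher and 11.6% lower. The called shares were 83.3% higher and 0% lower for snRNP proteins, 0% and 30% for SR proteins, 10% and 15% for hnRNPs, which lie near those of all genes, and 22.2% and 11.1% for SF3 subunits, shares that rest on few genes. The median log2 change (IL-33 over PBS) was 0.73 for snRNP proteins, -0.18 for SR proteins, 0.05 for hnRNPs and 0.39 for SF3 subunits, beside -0.05 over all genes tested. Leaving out 1 library moved the SR median between -0.34 and -0.12, at -0.29 without IL-33 replicate 1, -0.30 without PBS replicate 3 and -0.34 without PBS replicate 4, and the hnRNP median between -0.07 and 0.09, with the sign turned without IL-33 replicate 4, PBS replicate 3 or PBS replicate 4. No test of a difference between families was run. In all, 51 members passed the filter on low counts, 14 rose, 7 fell and 30 were not called. With libraries scaled by their total alone, which moved the median of all genes by 0.13, the called genes were 5 snRNP proteins (higher), 2 SR proteins (lower), 0 hnRNPs and the SF3 genes Sf3a2 and Sf3b4 (higher). Bulk counts cannot tell a change per cell from a change in the mix of cells within the sort.

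**Figure D1:**
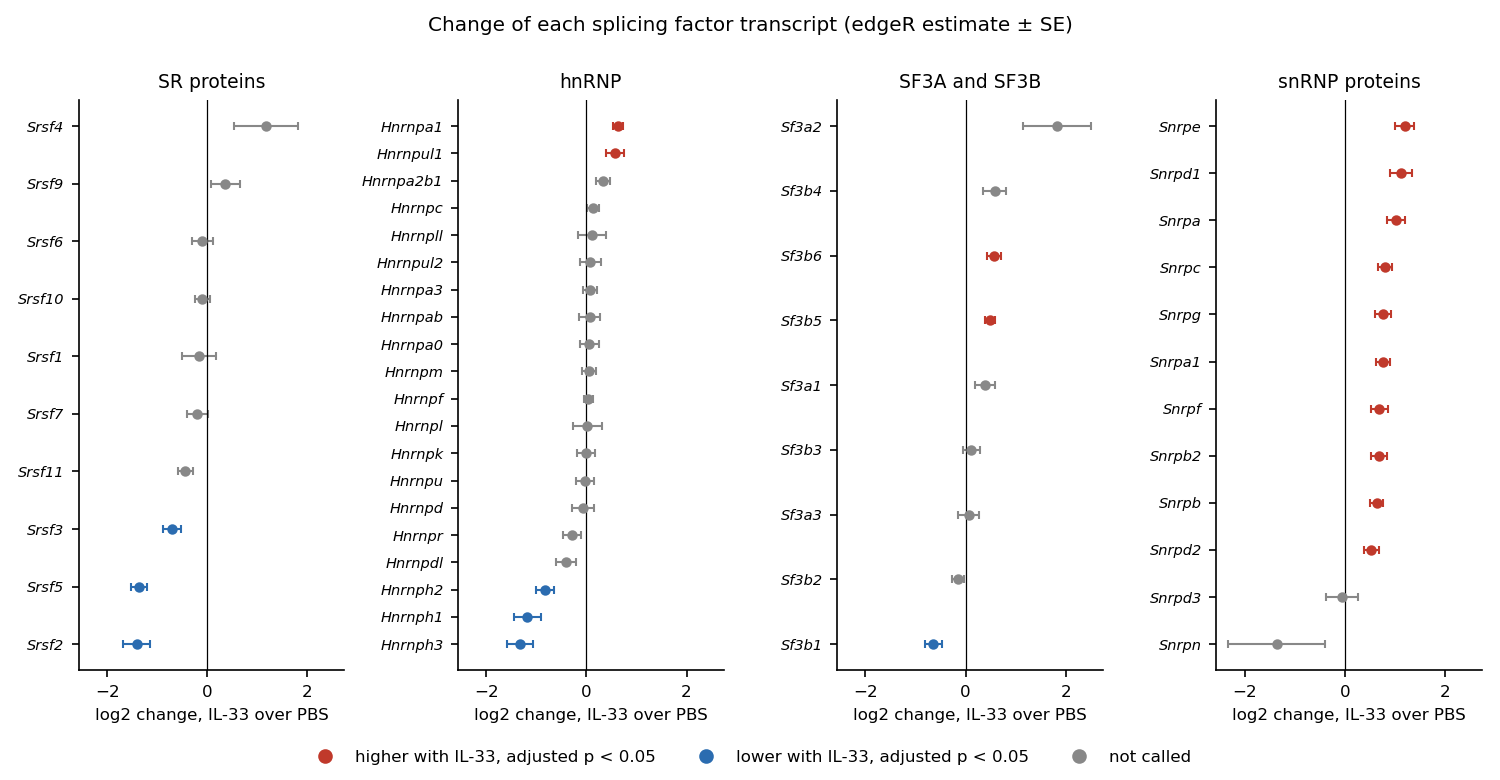
Change of each tested member on the log2 scale (horizontal axis, IL-33 over PBS) in 4 panels, 1 per family, with bars for the SE of the edgeR estimate and colours for the call at an adjusted p below 0.05. The snRNP panel lies to the right of 0 for 10 of its 12 genes, and the lowest called values are those of Srsf2, Srsf5 and Hnrnph3.

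Of the 7 genes of the Sm ring 6 rose, as did both genes of U1 proteins and both of U2 proteins in the family, and log2 changes of the 10 risers ran from 0.53 to 1.20. Snrpe (ENSMUSG00000090553, chromosome 1, 133603871 to 133610291), which encodes SmE, had 217, 214, 171, 233 and 186 CPM in the IL-33 libraries, against 79.2, 63.3, 122 and 91.9 CPM in the PBS libraries. Every IL-33 library lay above every PBS library. The means were 204 ± 25.2 CPM (SD, n = 5) with IL-33 and 89.0 ± 24.7 CPM (SD, n = 4) with PBS, and the log2 change was 1.20 ± 0.19 (SE, edgeR adjusted p = 0.0019).

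Snrpa (ENSMUSG00000061479, chromosome 7, 27187005 to 27196271), which encodes the A protein of U1, a protein that binds a stem-loop of U1 RNA, had 73.0, 96.9, 67.8, 73.0 and 81.5 CPM with IL-33, against 27.1, 46.8, 42.6 and 37.2 CPM with PBS. Its log2 change was 1.03 ± 0.18 (SE, edgeR adjusted p = 0.0035), and the groups did not overlap. Snrpc (ENSMUSG00000024217, chromosome 17, 27838150 to 27851968), the zinc-finger C protein of U1 that steadies the pairing of U1 with the 5′ splice site, had 94.5, 103, 96.2, 87.4 and 92.3 CPM with IL-33. In the PBS libraries it had 62.2, 47.9, 63.8 and 43.9 CPM, all below the lowest IL-33 library, and its log2 change was 0.80 ± 0.14 (SE, edgeR adjusted p = 0.0032). Snrpb (ENSMUSG00000027404, chromosome 2, 130171414 to 130179403), which encodes SmB, was the member of the family with the most counts per kb of gene model. It had 481, 607, 399.8, 494 and 484 CPM with IL-33, against 286, 280.3, 359.7 and 343 CPM with PBS, with no overlap (log2 change 0.64 ± 0.14, SE, edgeR adjusted p = 0.0081).

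The U2 proteins Snrpa1 and Snrpb2, which bind U2 RNA as a pair, rose, with log2 changes of 0.76 and 0.68. Among the other Sm genes Snrpd1 rose by 1.13, Snrpg by 0.77, Snrpf by 0.69 and Snrpd2 by 0.53. Only Snrpd2 of the 10 risers had overlapping groups, at 114.6 to 194 CPM with IL-33 and 91.4 to 115.8 CPM with PBS. Its call (edgeR adjusted p = 0.032) was lost without PBS replicate 4 (log2 change 0.47, edgeR adjusted p = 0.082) and without 5 other libraries taken singly. Of the 12 members, 9 had all IL-33 libraries above all PBS libraries, an outcome found for 15.3% of all genes tested; in either direction the groups were apart for 26.1%. The exception in the ring was Snrpd3 (SmD3), which had 77.9, 79.7, 32.7, 117 and 69.3 CPM with IL-33, against 108, 71.3, 57.4 and 74.6 CPM with PBS. The libraries of the groups were mixed, and the log2 change was -0.05 ± 0.32 (SE, edgeR adjusted p = 0.93). Snrpn, the imprinted gene of SmN, which replaces SmB in neurons, was near the detection limit at 0 to 1.93 CPM with IL-33 and 1.72 to 4.48 CPM with PBS (edgeR adjusted p = 0.33).

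Per kb of gene model, Snrpb stood at 249.6 CPM per kb with IL-33 and 160.5 with PBS, followed by Snrpe at 149 and 64.9, Snrpg at 83.4 and 48.9 and Snrpd2 at 57.3 and 39.5. Snrpd1, Snrpf and Snrpd3 came last of the ring, at 38.6, 28.2 and 21.9 CPM per kb with IL-33 and 17.6, 17.5 and 22.6 with PBS. Each Sm protein is present once in the assembled ring, yet the levels of the mRNAs per kb differed within it. The gene model joins all annotated exons of a gene, so the order within the ring depends in part on it. In the IL-33 libraries Snrpd3 had the lowest mean of the ring, next to Snrpf, and in the PBS libraries Snrpf and Snrpd1 had the lowest. Exons of Snrpf share 567 of 861 bases with the antisense gene Ccdc38, those of Snrpa 327 bases with BC024978 and those of Snrpd3 232 bases with Gucd1. The labels do not say whether the library kit marks strand, so reads of such partners cannot be told apart. The mature mRNAs of Sm proteins have processed pseudogenes, so their counts are uncertain to that degree.

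**Figure D2:**
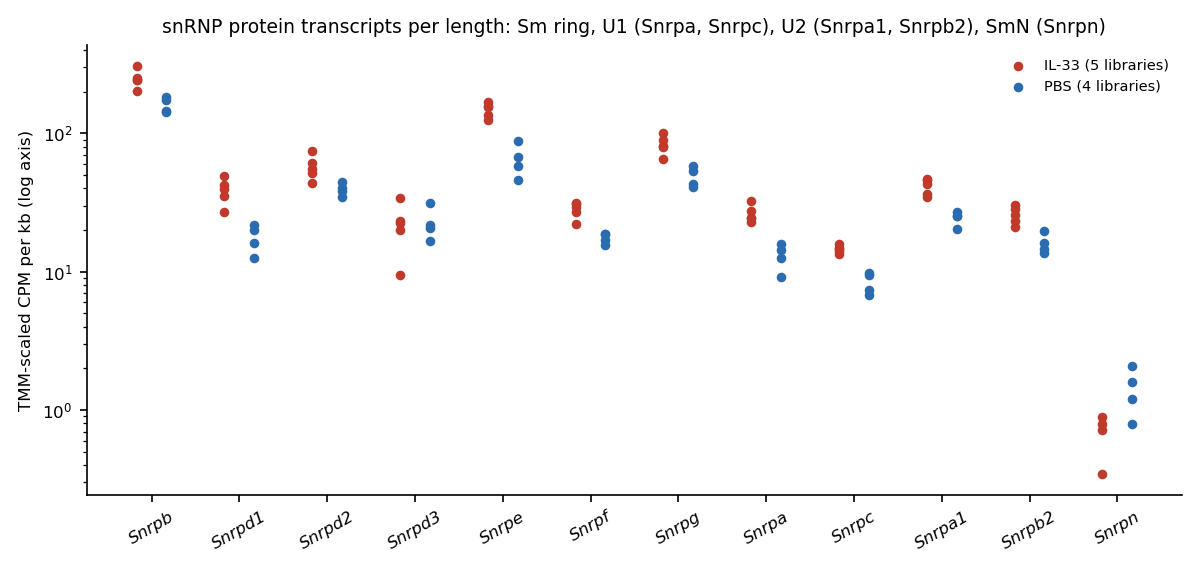
Level of the 12 snRNP protein transcripts in TMM-scaled CPM per kb of gene model (log axis), with IL-33 libraries left of PBS libraries for each gene; 1 IL-33 library with 0 counts of Snrpn is not drawn. The IL-33 points lie above the PBS points for 9 genes and overlap with them for Snrpd2, Snrpd3 and Snrpn.

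Among SR proteins the falls were those of Srsf5, Srsf2 and Srsf3. Srsf5 (ENSMUSG00000021134, chromosome 12, 80945504 to 80950507), which encodes SRp40, had the most counts per kb of its family over the 9 libraries, although with IL-33 alone Srsf7 stood above it. It had 188, 169, 184, 213 and 225 CPM in the IL-33 libraries, against 559, 631, 456 and 368 CPM in the PBS libraries. No IL-33 library reached the lowest PBS library. The means were 196 ± 22.5 CPM (SD, n = 5) with IL-33 and 504 ± 116 CPM (SD, n = 4) with PBS, and the log2 change was -1.36 ± 0.16 (SE, edgeR adjusted p = 4.3e-04).

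Srsf2 (ENSMUSG00000034120, chromosome 11, 116849901 to 116853094), which encodes SC35, the factor that marks nuclear speckles, had 129, 81.5, 130.5, 119 and 100.2 CPM with IL-33. With PBS it had 372, 434, 191 and 194 CPM. The groups did not overlap, but PBS replicates 1 and 2 stood well above PBS replicates 3 and 4, and the log2 change was -1.41 ± 0.27 (SE, edgeR adjusted p = 0.0049). Its exons share 460 and 288 bases with the antisense genes Mettl23 and Mfsd11. Srsf3 (ENSMUSG00000071172, chromosome 17, 29032628 to 29043373), the smallest SR protein, also active in mRNA export, had 151, 139.5, 124, 129.9 and 163 CPM with IL-33. With PBS it had 242, 316, 187 and 175 CPM, again highest in PBS replicates 1 and 2, and the log2 change was -0.70 ± 0.18 (SE, edgeR adjusted p = 0.018). All 3 had every IL-33 library below every PBS library, as had 10.8% of all genes tested.

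No call was made for the other SR genes. Srsf11, a protein with an arginine- and serine-rich domain, had 195 to 253 CPM with IL-33 and 247 to 380.3 CPM with PBS, just outside the threshold (log2 change -0.43 ± 0.15, SE, edgeR adjusted p = 0.054). Without PBS replicate 3 or 4 it was called lower (edgeR adjusted p of 0.024 and 0.048). It was also called lower under DESeq2 size factors, a filter of at least 5 CPM in 4 libraries, the DESeq2 Wald test, limma voom or with acinar genes removed. Srsf1, the founding member of the family, ranged from 50.5 to 109 CPM with IL-33 and from 46.0 to 118 CPM with PBS. Srsf6, Srsf7 and Srsf10 had log2 changes of -0.10, -0.20 and -0.10. Srsf4 and Srsf9, both low, had log2 changes of 1.17 and 0.36 with edgeR adjusted p-values of 0.21 and 0.40. Srsf12 did not pass the filter, at 0 to 2.32 CPM with IL-33 and 0 to 1.62 CPM with PBS.

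**Figure D3:**
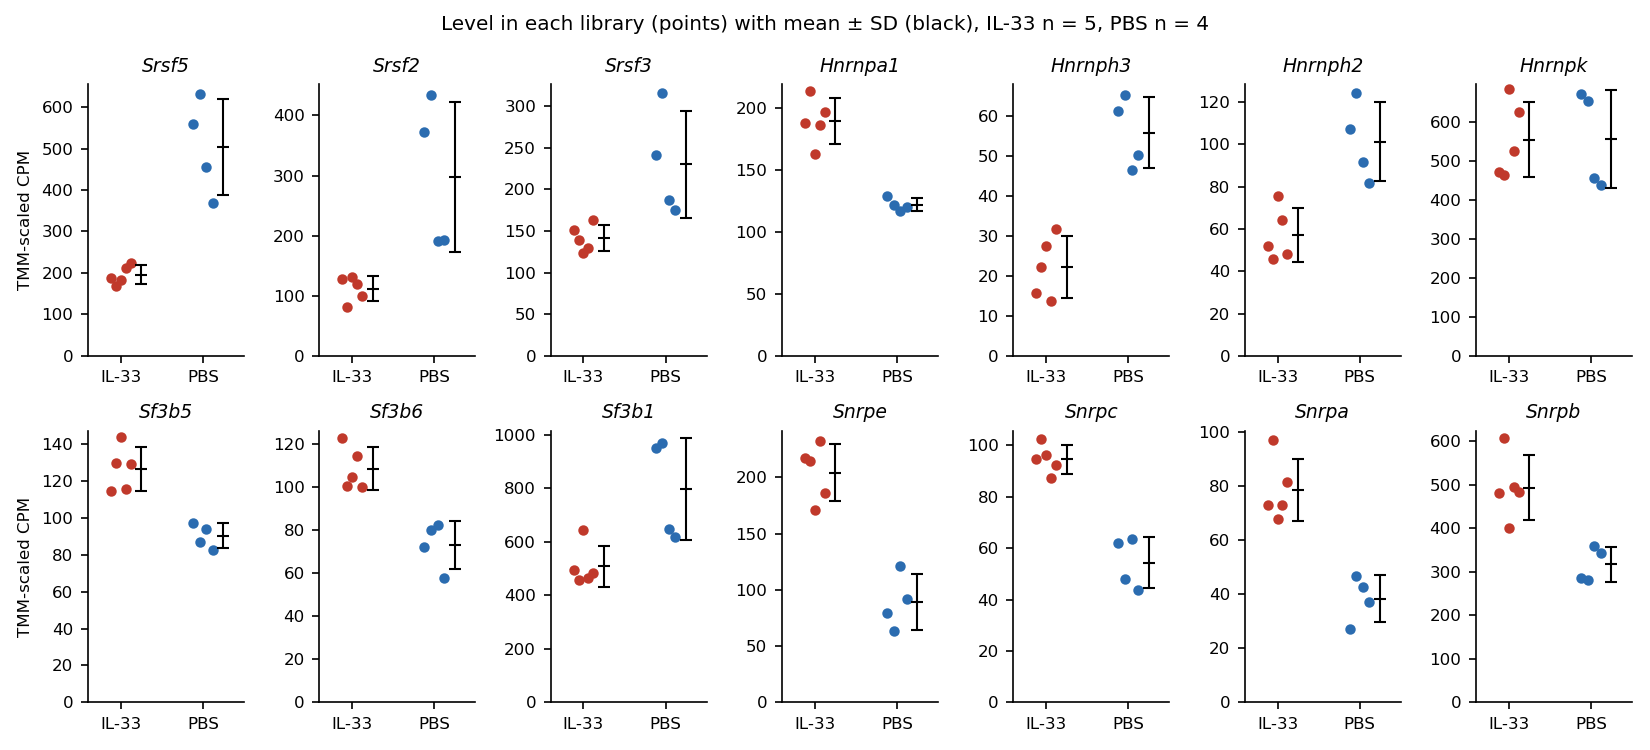
TMM-scaled CPM of 14 members, 1 panel each, in every IL-33 library (left in each panel) and PBS library (right), with the mean and SD in black; each vertical axis starts at 0. The groups are apart in 12 panels, beside 26.1% of all genes tested, but most of these members were picked for the smallest adjusted p of their family, which favours separation; the others are Hnrnpk, mixed, and Sf3b1, overlapping through 1 IL-33 library at 642 CPM.

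The 3 falls among hnRNPs were those of Hnrnph1, Hnrnph2 and Hnrnph3, of the H and F subfamily, proteins that bind runs of guanines. Hnrnpf, of the same subfamily, was not called. These falls are 15% of the 20 genes, beside 11.6% of all genes tested, and their grouping was not tested. Of 19 alternative settings, Hnrnph1 and Hnrnph2 kept the call in 16 and Hnrnph3 in 18. Under library size alone all 3 calls were lost. Only Hnrnph3 kept its call at a threshold of 0.01 or with a term for replicate number. Hnrnph3 (ENSMUSG00000020069, chromosome 10, 63014664 to 63024217) had 15.7, 22.2, 27.6, 13.7 and 31.9 CPM with IL-33, against 61.3, 65.4, 46.5 and 50.4 CPM with PBS, with no overlap (log2 change -1.33 ± 0.26, SE, edgeR adjusted p = 0.0056). Hnrnph2 (ENSMUSG00000045427, chromosome X, 134601179 to 134607060), an X-linked paralog of Hnrnph1, had 52.1, 45.8, 75.6, 64.2 and 48.1 CPM with IL-33, against 107, 124, 91.9 and 81.9 CPM with PBS. Its groups did not overlap either, and the log2 change was -0.83 ± 0.19 (SE, edgeR adjusted p = 0.010).

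Hnrnph1 had 154, 138, 130.0, 158 and 136 CPM with IL-33, and 409.7, 489, 209 and 186 CPM with PBS (log2 change -1.18 ± 0.27, SE, edgeR adjusted p = 0.011). As for Srsf2, all PBS libraries were above the IL-33 libraries and PBS replicates 1 and 2 were the highest. Hnrnpf, at 205 to 228 CPM with IL-33 and 187 to 231.5 CPM with PBS, differed little (log2 change 0.04 ± 0.09, SE, edgeR adjusted p = 0.77). Hnrnph1 and Hnrnph2 have similar coding sequences, so the authors' counting could have shared reads between them.

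The risers were Hnrnpa1 and Hnrnpul1. Hnrnpa1 (ENSMUSG00000046434, chromosome 15, 103240432 to 103246692), the classical antagonist of SR proteins at exons and a regulator of Pkm splicing, had 188, 214, 162, 186 and 196 CPM with IL-33, against 129, 122, 117 and 120.0 CPM with PBS. The PBS libraries lay close together and below all IL-33 libraries, and the log2 change was 0.64 ± 0.10 (SE, edgeR adjusted p = 0.0020). Hnrnpa1 has many processed copies, 2 of which are in the table and were left out. Hnrnpul1, a relative of Hnrnpu that acts also in DNA repair, had 59.7 to 82.4 CPM with IL-33 and 37.0 to 58.7 CPM with PBS (log2 change 0.57 ± 0.18, SE, edgeR adjusted p = 0.045). Its call was lost when any library other than IL-33 replicate 3 or PBS replicate 4 was left out (edgeR adjusted p of 0.054 to 0.12).

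The other 15 hnRNP genes were not called, with log2 changes between -0.41 (Hnrnpdl) and 0.34 (Hnrnpa2b1). Hnrnpk (ENSMUSG00000021546, chromosome 13, 58391142 to 58403343), a poly(C)-binding protein and the hnRNP with the most counts per kb over the 9 libraries, had 472, 464, 682, 526 and 625 CPM with IL-33. With PBS it had 672, 654, 454 and 438 CPM, so the groups were mixed and the means of 554 ± 96.2 CPM (SD, n = 5) with IL-33 and 554 ± 125 CPM (SD, n = 4) with PBS differed by less than either spread (edgeR adjusted p = 0.99). With IL-33 alone Hnrnpa2b1 stood above it, at 89.5 CPM per kb against 85.6 CPM per kb. Hnrnpll, the hnRNP known for silencing variable exons of CD45 in memory T cells, was at 79.5 ± 19.7 CPM (SD, n = 5) with IL-33 and 73.9 ± 27.4 CPM (SD, n = 4) with PBS (log2 change 0.10, edgeR adjusted p = 0.82). Hnrnpl, its paralog, had a log2 change of 0.02. Hnrnpu, a scaffold-attachment protein whose exons share 804 bases with the antisense gene Cox20, had a log2 change of -0.03 (edgeR adjusted p = 0.93).

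In SF3B, 2 small subunits rose and the large scaffold fell. Sf3b5 (ENSMUSG00000078348, chromosome 10, 13005343 to 13009183), which encodes SF3b10, had 114, 129.5, 144, 116 and 129 CPM with IL-33, against 97.4, 86.9, 93.9 and 82.4 CPM with PBS (log2 change 0.49 ± 0.11, SE, edgeR adjusted p = 0.0097). Sf3b6 (ENSMUSG00000037361, chromosome 12, 4817544 to 4827659), which encodes p14, the subunit next to the branch-point adenosine, had 123, 100.4, 105, 114 and 99.8 CPM with IL-33, against 71.8, 80.0, 82.1 and 57.8 CPM with PBS (log2 change 0.57 ± 0.13, SE, edgeR adjusted p = 0.012). Neither gene's groups overlapped.

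Sf3b1 (ENSMUSG00000025982, chromosome 1, 54985169 to 55027481), the HEAT-repeat protein that holds the branch-point helix and had the most counts per kb of the family over the 9 libraries, had 495, 459, 642, 465 and 483 CPM with IL-33. In the PBS libraries it had 952, 969, 647 and 619 CPM. PBS replicates 1 and 2 were far above the rest, IL-33 replicate 3 lay between PBS replicates 4 and 3, and the log2 change was -0.65 ± 0.17 (SE, edgeR adjusted p = 0.021). The call was lost without IL-33 replicate 2 or 5 or PBS replicate 1 or 2 (edgeR adjusted p of 0.051 to 0.068). Per kb, Sf3b1 stood at 44.8 CPM with IL-33 and 70.1 CPM with PBS and Sf3b2 at 51.7 and 57.1 CPM, so that Sf3b2 was the higher with IL-33. Sf3a2, an SF3A subunit with a zinc finger, had 33.6, 35.2, 9.94, 25.3 and 39.2 CPM with IL-33 and 1.11, 4.33, 14.3 and 12.7 CPM with PBS, and the log2 change of 1.83 ± 0.67 was not called (SE, edgeR adjusted p = 0.074). Under library size alone, the DESeq2 Wald test and limma voom Sf3a2 was called higher. Its exons share 429 bases with the antisense gene Plekhj1. Sf3b4 had a log2 change of 0.58 (edgeR adjusted p = 0.090) and was called higher without PBS replicate 4 (edgeR adjusted p = 0.026). Library size alone and limma voom also called Sf3b4 higher. Sf3a1, Sf3a3, Sf3b2 and Sf3b3 lay between -0.14 and 0.39.

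Summed over each family, the members held 1536 ± 198 CPM of snRNP protein transcripts with IL-33 (SD, n = 5) and 935 ± 78.5 CPM with PBS (SD, n = 4), a ratio of 1.64. SR proteins summed to 1144 ± 44.8 CPM with IL-33 and 1847 ± 422 CPM with PBS, a ratio of 0.619. Both sums separated the groups, at 1235 to 1778 CPM against 847 to 1035 CPM for snRNP proteins and at 1114 to 1223 CPM against 1477 to 2273 CPM for SR proteins. Most of the SR difference lay in Srsf5, Srsf2 and Srsf3, with means of 196, 112 and 141.5 CPM with IL-33 and 504, 297.5 and 230 CPM with PBS. The median log2 change of SR genes was -0.18, and 7 of the 10 tested were not called. The hnRNP sums, 3208 ± 154 CPM with IL-33 and 3252 ± 547 CPM with PBS, and the SF3 sums, 1428 ± 53.4 and 1612 ± 191 CPM, overlapped. In all 3 families other than snRNP proteins the PBS sums were split, with PBS replicates 1 and 2 above PBS replicates 3 and 4, while the IL-33 sums lay close together. PBS replicates 1 and 2 were also lower in acinar counts, with 1.48% and 0.0966%, than PBS replicates 3 and 4, with 5.63% and 31.5%, and whether this bears on the split was not tested. These sums describe members chosen with results of these data known, and no test was run on them.

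**Figure D4:**
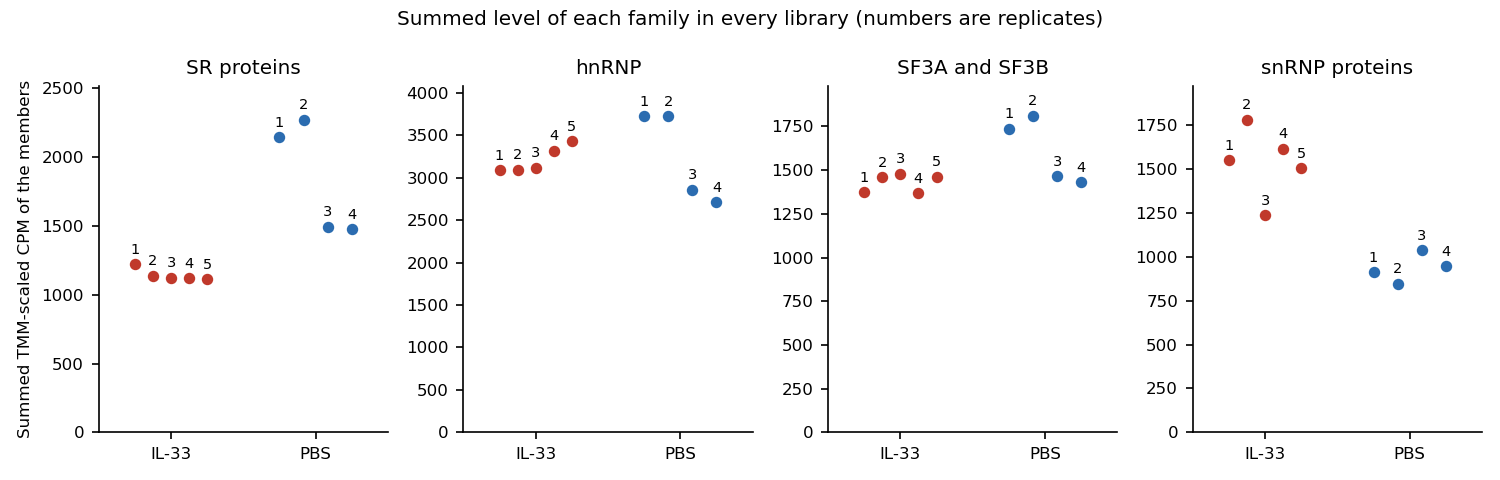
Summed TMM-scaled CPM of the members of each family (vertical axes from 0) in every IL-33 library (left) and PBS library (right), with replicate numbers above the points. PBS replicates 1 and 2 lie above PBS replicates 3 and 4 for SR proteins, hnRNPs and SF3 subunits, and the snRNP sums of all IL-33 libraries lie above 1035 CPM, the highest PBS sum.

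Gene length moved with the changes. It was taken as all annotated exons of a gene joined, which can exceed the length of the mRNA made. The classes and the removal of the length trend below rest on this measure. Among all genes tested, split into 5 classes by exon length, the shortest class (up to 1311 bases) had a median log2 change of 0.40 and the longest (from 6801 bases) one of -0.47, and 21.5% and 5.30% of these genes were called higher and 3.66% and 23.9% lower. Genes of snRNP proteins are short by this measure, with a median of 2388.5 bases of exon. The shortest class held 1 of them and the next 7. In that next class 19.3% of genes were called higher and the median log2 change was 0.13. The medians were 3988 bases for SR, 5897.5 for hnRNP and 3841 for SF3 genes. With the trend of counts with length removed in each library, 8 snRNP genes were still called higher, and their median log2 change was 0.52. Snrpf and Snrpd2 then lost the call (edgeR adjusted p of 0.35 and 0.10). Srsf5 and Srsf2 kept theirs, with log2 changes of -1.35 and -1.52, whereas Srsf3 and Sf3b1 lost theirs (edgeR adjusted p of 0.13 and 0.49).

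**Figure D5:**
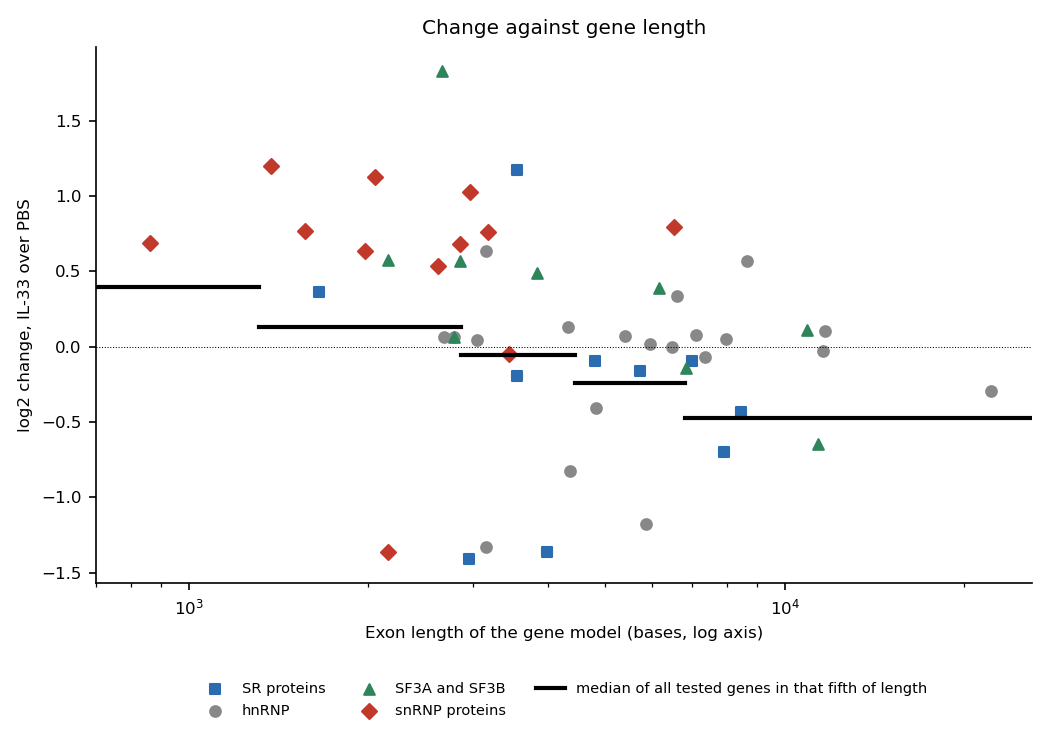
Log2 change (IL-33 over PBS) of each tested member against the exon length of its gene model (log axis), with a symbol per family and black bars for the median of all tested genes in each of 5 length classes. The snRNP genes lie above the bar of their length class except Snrpn and Snrpd3, which lies on it, and Srsf2, Srsf5 and Hnrnph3 lie far below theirs.

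Promoters are shown for 4 members whose transcripts moved in opposite directions, so that their sequence can be read beside the changes. Windows run from 250 bases before to 50 after the annotated start (RefSeq, build GRCm38.p6) and were available for 46 of the 52 members. Capitals mark matches, on either strand, to CCGGAAG (the core bound by ETS factors), CACGTG (E-box), TTTNGCGC (E2F), TGACGTCA (CRE), TATAAA (the core of the element bound by TBP) or CCAAT (bound by the factor NF-Y). The window of Snrpe is chr1:133610231-133610530 on the minus strand, that of Sf3b6 is chr12:4817358-4817657 on the plus strand, that of Srsf5 is chr12:80945249-80945548 on the plus strand and that of Srsf2 is chr11:116853045-116853344 on the minus strand.
Snrpe: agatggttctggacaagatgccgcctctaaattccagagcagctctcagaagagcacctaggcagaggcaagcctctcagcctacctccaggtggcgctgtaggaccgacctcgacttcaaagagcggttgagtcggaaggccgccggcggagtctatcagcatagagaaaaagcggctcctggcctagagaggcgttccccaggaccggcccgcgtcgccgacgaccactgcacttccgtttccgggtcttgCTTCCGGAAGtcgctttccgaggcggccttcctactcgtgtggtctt
Sf3b6: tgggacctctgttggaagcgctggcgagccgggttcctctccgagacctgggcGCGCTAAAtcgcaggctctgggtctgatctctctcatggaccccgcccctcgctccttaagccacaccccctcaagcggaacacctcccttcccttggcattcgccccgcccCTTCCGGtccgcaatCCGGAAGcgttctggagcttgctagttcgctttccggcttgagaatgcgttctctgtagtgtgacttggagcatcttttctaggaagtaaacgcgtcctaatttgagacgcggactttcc
Srsf5: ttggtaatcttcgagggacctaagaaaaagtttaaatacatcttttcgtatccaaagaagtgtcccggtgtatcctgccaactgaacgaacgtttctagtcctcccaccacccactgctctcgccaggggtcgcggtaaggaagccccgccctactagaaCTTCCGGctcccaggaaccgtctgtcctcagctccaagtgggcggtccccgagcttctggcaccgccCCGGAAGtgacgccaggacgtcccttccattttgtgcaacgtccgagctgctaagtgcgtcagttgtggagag
Srsf2: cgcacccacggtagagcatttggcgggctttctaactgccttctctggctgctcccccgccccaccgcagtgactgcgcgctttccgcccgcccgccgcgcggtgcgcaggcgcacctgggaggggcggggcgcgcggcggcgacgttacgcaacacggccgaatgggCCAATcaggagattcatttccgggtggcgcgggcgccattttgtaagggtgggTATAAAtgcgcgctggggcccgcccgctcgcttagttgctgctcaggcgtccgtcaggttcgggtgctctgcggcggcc
Snrpe, which rose, and Srsf5, which fell, each held 2 matches to CCGGAAG, overlapping in Snrpe. Sf3b6 held 2 with 1 match to the E2F letters, and Srsf2 held a TATAAA and a CCAAT. The ETS letters were found in the windows of 4 of 10 snRNP, 4 of 11 SR, 2 of 18 hnRNP and 6 of 7 SF3 genes, beside 21.5% of the 9280 tested genes with a window and 9.93% of all genes with one. The E-box letters were found for 1 of 10 snRNP, 0 of 11 SR, 5 of 18 hnRNP and 0 of 7 SF3 genes, beside 11.7% of tested genes, and the CCAAT letters for 4, 4, 13 and 2, beside 43.1%. The E2F letters were found for 1, 1, 0 and 1 genes of the families in that order, beside 2.87% of tested genes, the CRE letters for 2, 0, 0 and 0, beside 3.67%, and the TATAAA letters for 2, 2, 2 and 1, beside 8.84%. A match describes the letters only.

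The annotation gives a further feature that the symbols did not use. In GENCODE M21, 15 of 87 transcripts of the 11 SR genes are classed as targets of nonsense-mediated decay, in 9 of the 11 genes. For hnRNP genes it is 20 of 195 transcripts in 10 of 20 genes, for SF3 genes 1 of 40 in 1 of 9, and for snRNP protein genes 4 of 53 in 4 of 12. Srsf2 and Srsf3 have 2 such transcripts each and Srsf5 has 1. Counts per gene pool productive and unproductive transcripts, so the falls of SR genes could not be assigned to either.

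Other genes of the splicing pathway were grouped in lists by role, to be read beside the 13.7% of all genes tested that were called higher and the 11.6% called lower. Of 10 LSm proteins, Sm-like proteins that are mostly of the rings of U6 snRNP and of mRNA decay, 5 rose and none fell in edgeR. Their median log2 change was 0.60, or 0.37 with the length trend removed. Among the risers were Lsm5, at 59.0 ± 11.1 CPM (SD, n = 5) with IL-33 and 20.5 ± 2.55 CPM (SD, n = 4) with PBS (log2 change 1.53, edgeR adjusted p = 4.8e-04), and Lsm3 (log2 change 1.13, edgeR adjusted p = 0.0018). Without IL-33 replicate 4 or PBS replicate 4, 4 LSm genes were called higher and 1 lower. With all libraries, 5 were called higher and 1 lower under DESeq2 size factors, a filter of at least 5 CPM in 4 libraries, the DESeq2 Wald test or limma voom. Of 8 tested kinases that phosphorylate SR proteins 4 fell and none rose (median log2 change -0.80). Clk1, a nuclear kinase of SR proteins, was at 248 ± 59.1 CPM (SD, n = 5) with IL-33 and 585 ± 134 CPM (SD, n = 4) with PBS (log2 change -1.24, edgeR adjusted p = 0.0029), and Srpk2, a mainly cytoplasmic one, had a log2 change of -0.89 (edgeR adjusted p = 0.0045). With the length trend removed 2 kinases were called lower and 1 higher (median -0.35), under library size alone 1 was called lower, and without IL-33 replicate 4 or PBS replicate 2 it was 2, with a median of -0.53 without PBS replicate 2.

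Of 35 tested splicing regulators of other families 3 rose and 11 fell (median log2 change -0.40), led by the speckle proteins Son, at 352 ± 39.6 CPM (SD, n = 5) with IL-33 and 717 ± 147 CPM (SD, n = 4) with PBS (log2 change -1.03, edgeR adjusted p = 0.0012), and Srrm2 (log2 change -1.18, edgeR adjusted p = 0.0032). Both are long genes, and with the length trend removed this list had 6 genes higher and 2 lower (median -0.07). Under library size alone it had 2 higher and 1 lower, and its higher calls numbered 1 under DESeq2 size factors, no filter or acinar genes removed. Leaving out 1 library gave 1 to 2 higher and 6 to 13 lower, so the count of 3 higher was not kept in any of these fits. Lower calls numbered 7 without IL-33 replicate 2, 6 without PBS replicate 1 and 7 without PBS replicate 2, where the median was -0.14. Of 12 Snrnp-named and minor spliceosome proteins 2 rose and 3 fell, with Snrnp25, of the U11/U12 snRNP, up with a log2 change of 1.33 (edgeR adjusted p = 1.2e-04) and Zcrb1, of the same particle, down with one of -0.50 (edgeR adjusted p = 0.013). Of 15 tested snRNP assembly genes 2 rose and 2 fell, with log2 changes of 0.56 for Strap, a partner of the SMN complex (edgeR adjusted p = 0.0046), and -1.60 for Snupn, the import adaptor for capped snRNAs (edgeR adjusted p = 0.0063).

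Of 30 genes of the tri-snRNP, the NTC and the spliceosomal helicases 2 rose and 2 fell (median log2 change 0.01), with 1.03 for Phf5a, a small SF3B subunit with a symbol of another kind (edgeR adjusted p = 0.013), and -0.61 for Prpf8, the core of the U5 snRNP (edgeR adjusted p = 0.016). Both counts lie below the shares over all genes, and under library size alone the list had 0 calls. The 5 genes of 3′ splice site recognition gave no call in edgeR (1 at an unadjusted p below 0.05) and 1 higher in DESeq2, with U2af1 nearest in edgeR (log2 change 0.46, edgeR adjusted p = 0.050) and U2af2 next (log2 change 0.52, edgeR adjusted p = 0.13). Of 6 exon junction complex genes Rnps1 rose (log2 change 0.69, edgeR adjusted p = 0.024) and Magohb fell (log2 change -0.99, edgeR adjusted p = 0.020). The counts of these small lists turned on single libraries: leaving out 1 gave 1 to 2 higher and 0 to 4 lower for the tri-snRNP list, 1 to 3 and 2 to 4 for the Snrnp-named list, 2 to 3 and 1 to 2 for assembly and 0 to 2 and 0 to 1 for the exon junction complex. Genes of cycling cells moved with the snRNP genes, since 16 of 16 rose (median log2 change 3.95), Ccnb1 by 5.40 and Birc5 by 5.25 (edgeR adjusted p of 6.8e-06 and 4.8e-05), and their part in the changes of splicing factors was not tested.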

How the data were processed

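The submitters' processing notes name Salmon 1.6.0, STAR 2.7.7a, DESeq2, Trimmomatic 0.39, FastQC 0.11.9 and Picard, and the build GRCm38.p6. What each tool did, the annotation and any filter were not given in the sources used here. Whole-number counts per Ensembl gene, deposited by the authors, were used, and their scaled table was not. A low-input kit was used per the labels' protocols. Symbols, coordinates and exon lengths came from GENCODE M21, which named 20607 of 20732 genes (99.4%). Exon length is that of all annotated exons of a gene joined, whichever transcripts hold them.

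The test was the two-sided quasi-likelihood F-test of edgeR 4.0.16 (R 4.3.3) for IL-33 over PBS, with robust fitting, TMM scaling, filterByExpr at a minimum count of 10 and Benjamini-Hochberg adjustment over 14405 genes (threshold 0.05), and the SE is the log2 change divided by the root of F. The common biological coefficient of variation was 0.560. The procedure was also run on counts simulated from the means, library sizes and dispersions fitted to these data. That simulation held no acinar difference between libraries and no length trend, so it does not bear on either. Its outcome is not given here, and no result rests on it. No library was a copy of another: over the 16 pairs within groups, chi-square divided by its degrees of freedom was at least 52.6. Members and lists were chosen with earlier results of these data known. Library values were given for the 3 members of each family with the smallest adjusted p and the one with the most CPM per kb, and 2 genes of each other list were named; values of Hnrnph1, Sf3a2 and Snrpd3, the promoters shown and other uncalled genes named were chosen after values were seen. Precision is limited by 5 IL-33 and 4 PBS libraries.

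Alternatives were DESeq2 1.42.0 size factors (RLE), library size alone, no filter or at least 5 CPM in 4 libraries, the replicate number as a block, the DESeq2 Wald test, limma 3.58.1 voom with sample weights, a threshold of 0.01, acinar genes removed, the length trend removed through loess offsets, and leaving out each library.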

Additional observations from a re-analysis of the deposited data

Results flagged for a closer look

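Of 36 sets of library values tested for a sample far from the others of its group, 2 held one, where chance gives about 1 in 20. Sf3b1 was at 642.5 CPM in IL-33 replicate 3, next to 495 CPM in the second highest IL-33 library, and the summed SR protein transcripts were at 1223 CPM in IL-33 replicate 1, next to 1140 CPM. Without IL-33 replicate 3 Sf3b1 stayed called lower, and without IL-33 replicate 1 the same 3 SR genes were.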

How the results depend on the processing

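Of 967 single-member values under 19 alternatives, 834 kept their direction and side of the threshold, 62 lost a call, 16 gained one, 54 changed sign without being called in either, and 1 reversed (Hnrnpu, called higher at 0.50 with the length trend removed). Calls of Srsf5, Snrpe, Snrpa and Snrpa1 held in all 19. Over all genes, calls numbered 1976 under library size alone (1333 higher, 643 lower, 67.5% higher against 54.1%, with the median of all genes shifted by 0.13), 1457 with the replicate block and 1786 at an adjusted p below 0.01. For snRNP proteins higher, 5 remained called under library size alone and 4 with the block, and the median was 0.52 with the length trend removed. For SR proteins lower, 1 was left with the block. With Srsf11 gained, 4 were called under RLE, the 5 CPM filter, the DESeq2 Wald test, voom and acinar genes removed. For hnRNPs higher, 1 was called under RLE, no filter, the 5 CPM filter, the block, 0.01 and acinar genes removed, 0 under library size alone and 5 with the length trend removed (median 0.23); lower, 0 under library size alone and 1 with the block or 0.01. For SF3 higher, 0 were called with the block, 4 with voom and 1 at 0.01; lower, 0 under library size alone, the block, 0.01 and length removal. Where these differ from the reported values the cause was not tested. Leaving out 1 library gave 2676 to 3695 calls over all genes, 9 to 10 snRNP genes higher, 3 to 4 SR genes lower, 1 to 2 hnRNPs higher and 3 lower, and 2 to 3 SF3 genes higher and 0 to 1 lower. Deviations of same-numbered libraries had correlations of -0.0415, -0.115, -0.0657 and 0.0691 for replicates 1, 2, 3 and 4. Whether libraries of 1 number share a day or batch was not tested. With the replicate block the pathway lists had 3 LSm genes higher, 2 kinases lower, 5 other regulators lower and 0 higher, 1 tri-snRNP gene and 1 Snrnp-named gene higher with 0 lower, 1 assembly gene lower with 0 higher, and 0 exon junction genes called. Under library size alone the Snrnp-named list had 1 higher and 0 lower, assembly 0 and 1, and the exon junction complex 0 calls.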
